A study of Mus musculus with 12 samples.

Results

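The cytosolic ribosome makes the proteins of a cell, and the genes of its protein subunits are described here in the fat cells and the stromal vascular cells of mouse inguinal adipose tissue. The set was taken by gene symbol: every row of the deposited table whose symbol is Rpl or Rps followed by a number (with the usual suffixes), Rplp0 to Rplp2, or Rpsa, leaving out Rps4x and Rps4l. It holds 81 of 16670 genes, 51 of the large subunit and 30 of the small subunit. Of the 81 genes, 6 are paralogs, copies of another ribosomal protein gene with the suffix l or l1. RNA was sequenced from female C57BL/6 mice with 2 genotype labels, Kdm5c+/- and Kdm5c+/+ (wild type). Kdm5c is an X-linked gene for a demethylase of histone H3 lysine 4, and what was altered in it is not named in the labels. Inguinal fat of 2 mice was pooled per digestion with collagenase, and centrifugation gave a floating mature adipocyte fraction and a stromal vascular pellet, which mixes progenitors, vascular cells and immune cells. The 4 groups were Kdm5c+/- adipocytes, wild-type adipocytes, Kdm5c+/- stromal vascular cells and wild-type stromal vascular cells, with 3 libraries each and no treatment named.

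The small subunit of the ribosome holds and decodes the mRNA, and the large subunit joins the amino acids. Each ribosome takes 1 copy of nearly every ribosomal protein, so their production is known to be kept in balance, and many of their mRNAs begin with a C and a run of pyrimidines (the 5′ terminal oligopyrimidine, or TOP, motif) through which mTORC1 sets their translation. In fat, adipocytes carry one large lipid droplet with a thin cytoplasm, while stromal cells can divide. The comparisons ask how these mRNAs differ between the fractions, and between the genotype labels within each fraction.

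Levels are in CPM, reads scaled to a sum of 1000000 over all genes listed. A library held 21836878 to 29434125 reads, so that 3 reads came to 0.102 to 0.137 CPM. Kdm5c itself had 158, 190.3 and 158 CPM in adipocyte libraries labelled Kdm5c+/-, against 179, 174 and 180.0 CPM in wild type, and 194, 190.4 and 175 CPM in stromal vascular libraries labelled Kdm5c+/-, against 188, 185 and 180.1 CPM in wild type. The labels overlapped in both fractions, so this level does not check them, and the libraries are called by their labels throughout. The fractions carried their markers: 10 adipocyte genes summed to 36958 to 50139 CPM in adipocyte and 4422 to 8015 CPM in stromal vascular libraries, and 8 progenitor genes summed to 72.9 to 171 CPM in adipocyte and 6449 to 9179 CPM in stromal vascular libraries. In adipocyte libraries 15.7% to 19.3% of the reads fell on the 10 most abundant genes, and 5.77% to 8.41% did so in stromal vascular libraries. The transcript of the 45S ribosomal RNA precursor (Rn45s) had 4909, 7692 and 4813 CPM in Kdm5c+/- adipocytes, 4015, 4386 and 3794 CPM in wild-type adipocytes, 18620.5, 19532 and 8985 CPM in Kdm5c+/- stromal vascular cells and 6733, 6554 and 6676 CPM in wild-type stromal vascular cells. The first and second Kdm5c+/- stromal vascular libraries stood apart by it, and the genotype counts and medians of that fraction are also given without them.

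Sequences around the start of transcription are shown for 8 of the genes on which the results below turn, because the TOP motif is read from the first bases of the mRNA. Each is 45 bases long, 5′ to 3′ on the gene's own strand, with 30 bases before the most upstream RefSeq start and 15 bases from it on (RefSeq, build GRCm38.p6). Capitals mark a C followed by at least 4 C or T, where that C lies within 10 bases of the start.
Rps26 (chr10:128626492-128626536, minus strand): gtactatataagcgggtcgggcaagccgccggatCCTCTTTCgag
Rps15a (chr7:118116133-118116177, minus strand): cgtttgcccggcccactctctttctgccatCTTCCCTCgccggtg
Rpl13a (chr7:45128731-45128775, minus strand): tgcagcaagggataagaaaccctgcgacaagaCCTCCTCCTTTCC
Rps27l (chr9:66946056-66946100, plus strand): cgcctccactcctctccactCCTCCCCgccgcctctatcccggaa
Rpl10 (chrX:74270786-74270830, plus strand): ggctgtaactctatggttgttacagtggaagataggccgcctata
Rpl5 (chr5:107900498-107900542, plus strand): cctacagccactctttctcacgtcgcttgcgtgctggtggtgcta
Rpl23 (chr11:97782425-97782469, minus strand): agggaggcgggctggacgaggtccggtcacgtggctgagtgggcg
Rps19 (chr7:24884562-24884606, plus strand): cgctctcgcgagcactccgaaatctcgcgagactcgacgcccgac

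Runs are counted from the first C that meets this rule within 10 bases of the start. Rps15a had its run of 8 pyrimidines at the RefSeq start itself, and Rps26 had one of 8 at 4 bases after the start. Rpl13a had one of 14 (running past the edge of the printed window) at 2 bases after its start. Rps27l had one of 7 counted from 10 bases before its start. The c and t printed just before that stretch are pyrimidines too, so its full run begins further upstream. The other 4 windows held no such run within 10 bases of this start, which says only that the rule was not met there. The printed windows of Rpl5 and Rps19 do hold a C with at least 4 more pyrimidines further upstream, outside that limit. Genes can start transcription at several sites. Rps19 had a run of 7 at 6 bases after another of its RefSeq starts, and it counts among the genes with a run below. RefSeq promoters, 250 bases before to 50 bases after a start, were matched for 61 of the 81 genes. A start with a C and at least 4 more pyrimidines within 10 bases of it was found for 38 of the 61 (62.3%), against 34.4% of 27025 genes with a promoter in the table. It was found for 23 of 39 large subunit genes (59.0%) and 15 of 22 small subunit genes (68.2%). The ETS-type motif CCGGAAG, on either strand, was in the promoter of 25 of the 61 (41.0%), against 9.93% of all genes. The E-box CACGTG was in 6 (9.84%), against 8.09% of all genes, and TATAAA in 7 (11.5%), against 15.7% of all genes.

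The ribosomal protein genes took a smaller share of the reads in adipocytes than in the stromal vascular fraction (plot of shares by library). They held 0.365%, 0.367% and 0.367% of the reads in Kdm5c+/- adipocytes, 0.335%, 0.348% and 0.337% in wild-type adipocytes, 0.809%, 0.723% and 0.661% in Kdm5c+/- stromal vascular cells, and 0.740%, 0.743% and 0.737% in wild-type stromal vascular cells. Every adipocyte library lay below every stromal vascular library. Within adipocytes the 3 Kdm5c+/- libraries lay above the 3 wild-type libraries, while in the stromal vascular fraction the Kdm5c+/- libraries spread to both sides of the wild type. The large subunit took 1.38 to 1.45 times the reads of the small subunit over all 12 libraries, and that ratio overlapped between all groups, with means of 1.41 ± 0.037 in Kdm5c+/- adipocytes, 1.42 ± 0.021 in wild-type adipocytes, 1.41 ± 0.021 in Kdm5c+/- stromal vascular cells and 1.41 ± 0.033 in wild-type stromal vascular cells (SD, n = 3 each). The 77 genes of the mitochondrial ribosome, which is built from other proteins, took 0.244% to 0.284% of the reads in adipocyte and 0.114% to 0.132% in stromal vascular libraries. Fewer cells of a type and less RNA per cell cannot be told apart in such bulk fractions.

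**Figure D1:**
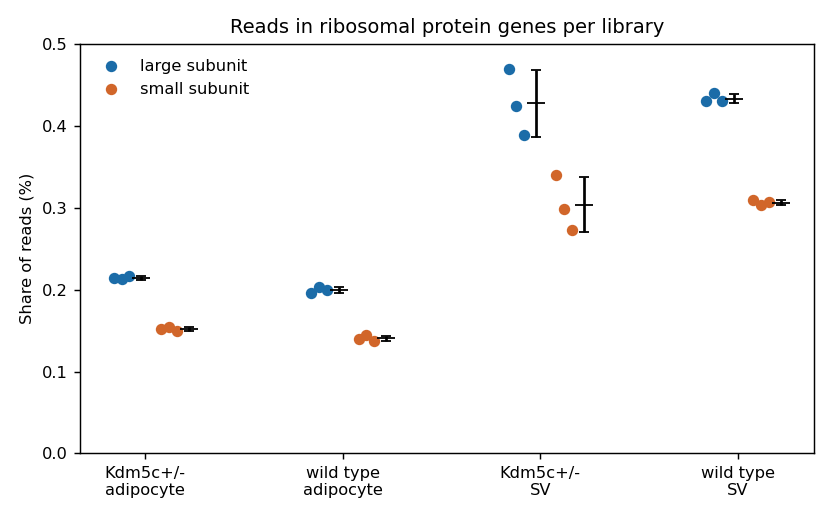
Share of all reads (%, y axis) in the 51 large subunit genes (blue) and the 30 small subunit genes (orange) for each of the 12 libraries (points), with the mean and SD of the 3 libraries of each group (black). Both subunits lie lower in every adipocyte library than in every stromal vascular (SV) library, and the large subunit lies above the small one in all 12.

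Levels of single genes spread widely. Divided by the length of 1 GENCODE transcript per gene, the mean over the 12 libraries ran from 0.195 CPM per kilobase for Rpl3l to 580 CPM per kilobase for Rplp1. The highest large subunit genes per length were Rplp1, a stalk protein that calls elongation factors to the ribosome (580), Rpl41, the smallest of the ribosomal proteins (416), and Rpl8, a core protein near the peptidyl transferase centre (409). Among the highest small subunit genes were Rps15 (448) and Rps9, a protein at the entry of the mRNA channel (315). The median was 15.9 CPM per kilobase over the large subunit genes and 48.7 CPM per kilobase over the small subunit genes.

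That spread moved with shared sequence. Ribosomal protein genes have many processed pseudogenes, and a read that fits several genes may be dropped or assigned to any of them. How such reads were counted is not given in the sources used here. In GENCODE, 27 of the 81 genes shared at most 25% of their 100-base windows exactly with transcripts of other genes, and these had a median of 101 CPM per kilobase. The 23 genes that shared 25% to 50% had a median of 12.1 CPM per kilobase, and so did the 31 genes that shared more (plot of level against shared sequence). Rps3 shared none of its 100-base windows and had 166 CPM per kilobase, while Rps27 shared 98.4% and had 6.50 CPM per kilobase. Spearman's rho between level per length and shared windows was -0.38 across the 81 genes and -0.49 across the 75 that are no paralogs, as a description, since the genes share libraries. Levels between genes are therefore uncertain wherever sequence is shared, and a difference between libraries compares the reads that were assigned. Another gene on the same strand overlapped Rpl13, Rpl13a, Rpl19, Rpl24, Rpl36al and Rps10.

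**Figure D2:**
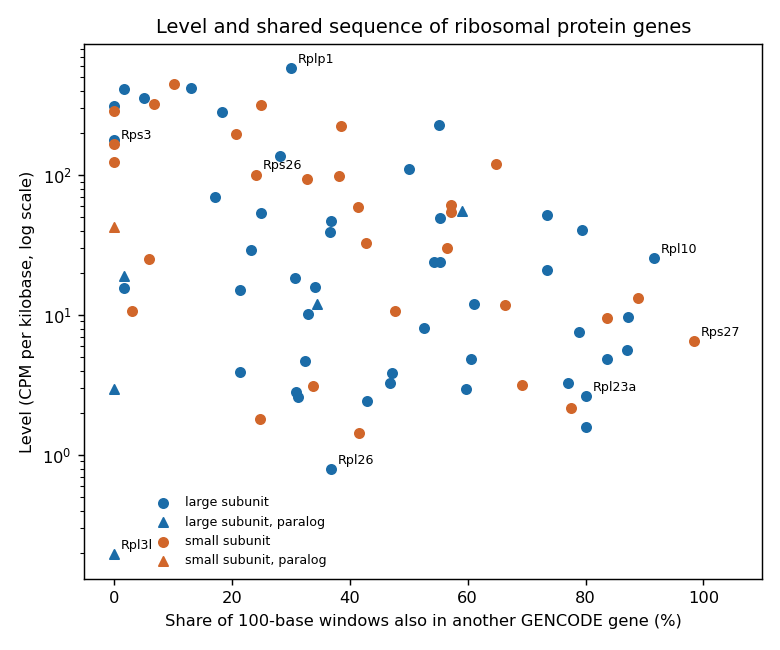
Mean level over 12 libraries in CPM per kilobase of transcript (y axis, log scale) against the share of a gene's 100-base windows found exactly in another GENCODE gene (%, x axis), for 51 large (blue) and 30 small (orange) subunit genes, with the 6 paralogs as triangles. The 10 highest genes, led by Rplp1 at 580 CPM per kilobase, share at most 30% of their windows, and the lowest is the paralog Rpl3l, which has no shared window.

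Between the fractions, most ribosomal protein mRNAs were lower in adipocytes on CPM, with medians near each other in both subunits. Of the 81 genes, 78 reached 1 CPM in at least 3 of the 12 libraries and were tested with limma, and Rpl3l, Rpl26 and Rps29 were not. At an adjusted p under 0.05 (Benjamini-Hochberg over 14193 genes), 69 of the 78 were called, against 87.8% of all genes tested. Of these, 66 were lower in adipocytes (84.6%, against 59.1% of all genes) and 3 were higher (3.85%, against 28.7% of all genes). In the large subunit 41 of 49 were lower and 1 was higher, and in the small subunit 25 of 29 were lower and 2 were higher. The median log2 difference, adipocyte minus stromal vascular, was -0.90 for the large subunit and -1.0 for the small subunit, beside -0.45 for all genes. The 6 adipocyte and 6 stromal vascular libraries did not overlap for 60 genes that were lower (76.9%, against 51.4% of all genes) and 2 that were higher (2.56%, against 23.2% of all genes). Called or not, 7 of 78 differences were above 0 (8.97%, against 34.6% of all genes), and 69 had an unadjusted p under 0.05, against 88.3% of all genes.

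The balance of higher and lower genes depended on the scaling. The split of higher to lower calls was 3 to 66 on CPM and 10 to 58 after median-of-ratios scaling. It was 28 to 44 after quantile normalization, and on recovered reads 11 to 55 in edgeR and 10 to 58 in DESeq2. Of all genes, 40.5% were called higher and 46% lower after median-of-ratios scaling, 47.1% higher and 39% lower after quantile normalization, 42.7% higher and 43.3% lower in edgeR, and 40.6% higher and 46% lower in DESeq2. The median of all genes was -0.45 on CPM and -0.085, 0.11, -0.0075 and -0.088 for the 4 alternatives in the order just given. Measured against that median, the 78 genes stood at -0.46 on CPM, -0.51 after median-of-ratios scaling, -0.46 after quantile normalization and -0.56 in both edgeR and DESeq2. Across these 5 scalings, 42 genes were called lower each time (24 of 49 large, 18 of 29 small), against 36.1% of all genes, and Rps27l, Rpl39l and Rps19 were called higher each time, against 28.6% of all genes.

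**Figure D3:**
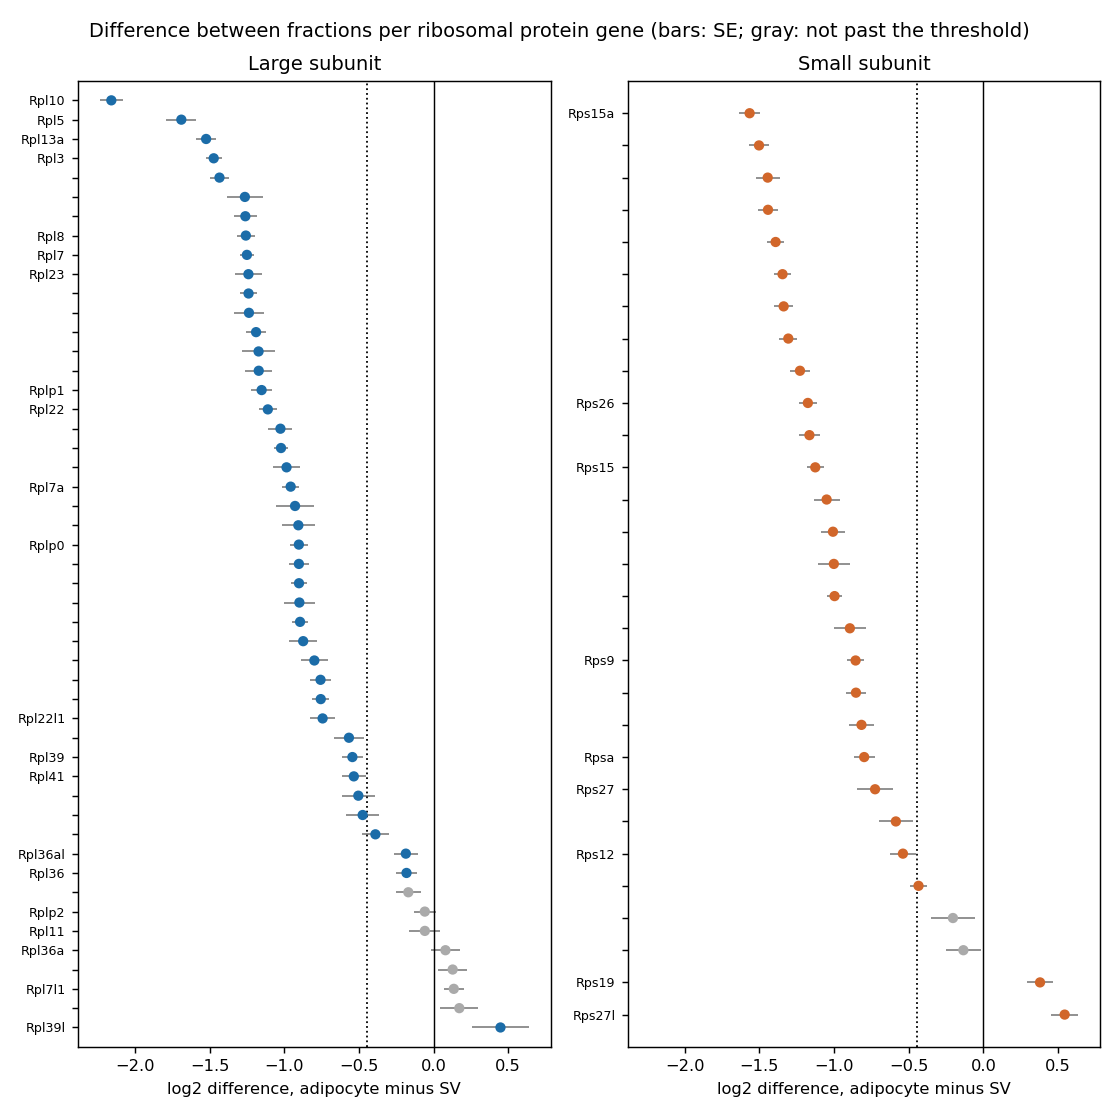
Log2 difference of log2(CPM + 1), adipocyte minus stromal vascular (SV), for 49 large (blue) and 29 small (orange) subunit genes, with SE bars and 6 libraries per fraction, and gene names for some of the genes described in the text. Gray points did not pass an adjusted p of 0.05 in limma, and the dotted line is the median of all genes tested (-0.45): most genes of both subunits lie to its left, and 3 coloured points lie to the right of 0.

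The genes furthest down in adipocytes were Rpl10, Rpl5, Rps15a and Rpl13a. Rpl10, an X-linked gene whose protein joins the large subunit late in its assembly, ranged over 5.92 to 9.04 CPM (median 6.59) in adipocytes, against 28.2 to 39.0 CPM (median 34.3) in stromal vascular libraries. The fractions were far apart, with a log2 difference of -2.16 ± 0.08 (SE) and an adjusted p of 1.24e-10 in limma. Rpl5, which binds the 5S ribosomal RNA, ranged over 2.46 to 3.76 CPM (median 3.263) in adipocytes, against 10.1 to 13.9 CPM (median 12.6) in stromal vascular libraries, a log2 difference of -1.69 ± 0.10 (adjusted p = 1.05e-08, limma). Its usual partner Rpl11, named after its values were seen, was at 2.12 to 2.62 CPM in adipocytes and at 1.84 to 3.21 CPM in stromal vascular libraries, with no call (-0.06 ± 0.10). Rps15a ranged over 24.8 to 29.98 CPM (median 26.7) in adipocytes, against 73.8 to 94.1 CPM (median 81.05) in stromal vascular libraries (-1.57 ± 0.07, adjusted p = 7.13e-10, limma). Rpl13a ranged over 116 to 128 CPM (median 124) in adipocytes, against 324 to 412 CPM (median 354) in stromal vascular libraries (-1.52 ± 0.07, adjusted p = 5.79e-10, limma). None of these 4 genes overlapped between the fractions, and all 4 were lower under each of the 5 scalings.

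The 3 genes that were higher in adipocytes were 1 common subunit protein and 2 paralogs. Rps19, a small subunit protein needed to mature that subunit and mutated in Diamond-Blackfan anaemia in humans, ranged over 76.7 to 91.1 CPM (median 78.8) in adipocytes, against 51.4 to 75.4 CPM (median 60.5) in stromal vascular libraries. All 6 adipocyte libraries lay above all 6 stromal vascular libraries, with a log2 difference of 0.38 ± 0.09 (adjusted p = 0.00126, limma). Rps27l, a paralog of Rps27 that is induced by p53, ranged over 23.0 to 26.3 CPM (median 25.4) in adipocytes, against 13.8 to 20.5 CPM (median 17.2) in stromal vascular libraries, again with no overlap (0.54 ± 0.09, adjusted p = 9.66e-05, limma). Rpl39l, a paralog of Rpl39 best known from the testis, ranged over 1.57 to 3.56 CPM (median 3.04) in adipocytes, against 0.760 to 3.66 CPM (median 1.50) in stromal vascular libraries (0.45 ± 0.19, adjusted p = 0.0444, limma). Its fractions overlapped, and its call was lost when pool 1 or 3 of Kdm5c+/- or pool 2 or 3 of wild type was left out (0.36 to 0.52 over the 6 pools left out in turn).

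Paralogs are set here beside the genes they are named after, with no test of the difference between them. Their coding sequences were 64.9% (Rpl7l1 and Rpl7) to 87.9% (Rpl36al and Rpl36a) identical, with no identical run over 38 bases. Rps27 was lower in adipocytes (1.07 to 2.00 CPM, against 1.83 to 3.82 CPM in stromal vascular libraries, -0.73 ± 0.12) while Rps27l was higher. Rpl39, at 6.90 to 8.34 CPM in adipocytes, against 10.9 to 13.04 CPM in stromal vascular libraries, was lower (-0.54 ± 0.07) while Rpl39l was higher. Rps27 and Rpl39 turned to 0.63 and 0.26 under quantile normalization, so both directions hold for CPM and not for each scaling. Rpl7 was lower in adipocytes (86.2 to 98.9 CPM, against 213 to 235 CPM in stromal vascular libraries, -1.25 ± 0.05), whereas Rpl7l1, whose yeast relative acts in ribosome assembly, was at 44.7 to 57.7 CPM in adipocytes and 43.5 to 51.8 CPM in stromal vascular libraries with no call on CPM (0.14 ± 0.07) and 0.51 to 0.62 with a call under the 4 other scalings. Rpl22 was lower in adipocytes (49.1 to 57.7 CPM, against 107 to 123 CPM in stromal vascular libraries, -1.11 ± 0.06) and so was Rpl22l1 (3.89 to 4.83 CPM, against 6.98 to 10.3 CPM in stromal vascular libraries, -0.74 ± 0.08, 0.29 under quantile normalization). Rpl3 was lower in adipocytes (26.6 to 29.98 CPM, against 72.6 to 87.6 CPM in stromal vascular libraries, -1.47 ± 0.05), and Rpl3l, a form of striated muscle, was near the floor at 0.0679 to 0.200 CPM in adipocytes and 0.268 to 0.629 CPM in stromal vascular libraries. Rpl36a was at 1.73 to 2.86 CPM in adipocytes and 1.65 to 2.702 CPM in stromal vascular libraries, with no call on CPM (0.08 ± 0.10). Rpl36al was called lower on CPM (23.8 to 32.3 CPM in adipocytes, against 26.4 to 34.9 CPM in stromal vascular libraries, -0.19 ± 0.08), but not with the pools as pairs (adjusted p = 0.0842, limma), and it turned to 0.20 to 0.28 under the other scalings. Rpl36 (-0.18 ± 0.07, named for this reason only) was called lower on CPM and was not called with the pools as pairs either (adjusted p = 0.0556, limma).

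The remaining genes named for their level followed the set. Rplp1 had 154 to 195 CPM (median 182) in adipocytes, against 350.2 to 461 CPM (median 387) in stromal vascular libraries (-1.15 ± 0.07). Rpl8 had 196 to 209 CPM (median 206) in adipocytes, against 441 to 537 CPM (median 495) in stromal vascular libraries (-1.26 ± 0.06). Rps15 had 131 to 149 CPM (median 140.4) in adipocytes, against 281 to 345 CPM (median 307) in stromal vascular libraries (-1.13 ± 0.06). These 3 did not overlap between the fractions. Rps9 (159 to 176 CPM in adipocytes, against 273 to 339 CPM in stromal vascular libraries, -0.86 ± 0.06) was lower as well. Rpl41 was lower on CPM (152 to 225 CPM in adipocytes, against 236 to 308 CPM in stromal vascular libraries, -0.53 ± 0.08), and its call was lost with median-of-ratios scaling, edgeR and DESeq2 (-0.14 to -0.06). Within the stalk, Rplp0 and Rplp1 were lower in adipocytes while Rplp2, named after its values were seen, was at 61.0 to 69.6 CPM in adipocytes and 60.1 to 83.2 CPM in stromal vascular libraries, with no call (-0.06 ± 0.07).

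Genes without a call between fractions were mostly low. Of the 45 genes with a mean of at least 10 CPM, 41 were lower, 2 were higher and 2 had no call (Rplp2 and Rpl7l1). Of the 33 tested genes under 10 CPM, 25 were lower, 1 was higher and 7 had no call (Rpl11, Rpl23a, Rpl24, Rpl34, Rpl36a, Rps23 and Rps27a). By shared sequence, 21 of 25 tested genes with at most 25% shared windows, 19 of 22 with 25% to 50% and 26 of 31 with more were lower, with medians of -1.11, -1.0 and -0.87. Shares of all genes at the same level or shared sequence were not computed, so these counts do not set the ribosomal protein genes apart.

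Other genes of the translation machinery were listed by function, and their counts stand beside the 28.7% of all genes called higher and 59.1% called lower on CPM. The mitochondrial ribosomal protein genes went the other way from the cytosolic ones, with 75 of 76 tested higher in adipocytes and a median log2 difference of 1.02. All 5 elongation factor genes were lower (median -0.57), among them Eef1b2 (-0.89 ± 0.07). Among ribosome genes that the symbol rule leaves out, Rps3a1 (-1.35 ± 0.05) and Gnb2l1, the gene of the ribosomal scaffold Rack1 (-1.42 ± 0.06), were lower, and Fau, a ubiquitin-like protein fused to a small subunit protein, had no call (-0.12 ± 0.09). Of 11 other mRNAs known to carry a TOP motif, 9 were lower and 1 higher, with Tpt1 at -1.41 ± 0.09, Npm1 at -0.85 ± 0.05 and Hnrnpa1 at -1.24 ± 0.09. Of 20 ribosome assembly genes 10 were lower, such as Nop56 (-1.19 ± 0.07) and Gar1 (-1.22 ± 0.07), and 6 were higher, such as Nop10 (0.96 ± 0.08) and Ltv1 (0.83 ± 0.08), which is near the shares of all genes. Of 9 RNA polymerase I genes 4 were lower and 3 higher. Of 13 genes of mTORC1 and growth signalling to translation, 9 were higher and 3 lower, with Eif4ebp1, the brake on cap-dependent translation that mTORC1 releases, at 2.98 ± 0.09 and the mTORC1 inhibitor Ddit4 at -2.61 ± 0.18. All of these values are log2 differences on CPM with their SE. After median-of-ratios scaling, quantile normalization and edgeR, all 76 mitochondrial ribosomal protein genes were called higher, and 4, 4 and 2 of the elongation factor genes were called lower. The calls of the other TOP mRNAs became 4 higher and 6 lower, 2 higher and 6 lower, and 5 higher and 5 lower. The medians of the ribosome assembly and RNA polymerase I lists, -0.16 and -0.15 on CPM, turned to 0.19 to 0.41 under these scalings, and the mTORC1 and growth signalling list had 12 higher and 1 lower under each of them.

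Between the genotype labels in adipocytes, ribosomal protein genes leaned to higher values in Kdm5c+/- without any gene passing the test. Rpl38 and Rps13 also fell below the filter here. Of 76 genes tested, 0 were called by limma at an adjusted p under 0.05, as among all 11913 genes tested (0%), and 0 by edgeR, while DESeq2 called 2, among 250 of all genes. At an unadjusted p under 0.05 there were 11 (14.5%, against 14.6% of all genes), all 11 of them higher in Kdm5c+/-, where 5.57% of all genes were higher and 9.01% lower. The log2 difference, Kdm5c+/- minus wild type, was above 0 for 57 of 76 genes (75%, against 43.1% of all genes), 37 of 48 in the large subunit and 20 of 28 in the small subunit. The medians were 0.12 for the large subunit and 0.13 for the small subunit, against -0.03 for all genes. The 3 Kdm5c+/- libraries lay above the 3 wild-type libraries for 26 genes (34.2%, against 9.44% of all genes) and below them for 3 (3.95%, against 12.6% of all genes). Under median-of-ratios scaling, quantile normalization, edgeR and DESeq2, 65, 67, 65 and 65 of the 76 were above 0, against 50.4%, 53%, 51% and 50.5% of all genes in the same order.

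**Figure D4:**
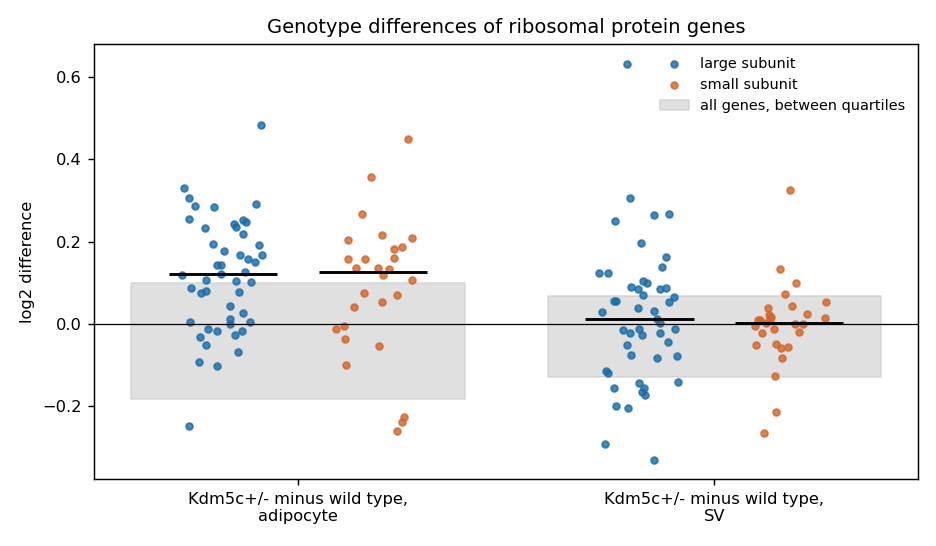
Log2 difference of log2(CPM + 1), Kdm5c+/- minus wild type, of each tested large (blue) and small (orange) subunit gene in adipocytes (48 and 28 genes) and in the stromal vascular fraction (49 and 29 genes), from 3 libraries per group. Black lines are medians and the gray band runs between the quartiles of all genes tested: in adipocytes both medians lie near the upper edge of the band, and in the stromal vascular fraction they lie near 0.

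Rps26 and Rpl23 had the smallest p. Rps26, a small subunit protein that lines the mRNA exit channel, had 46.1, 51.7 and 48.2 CPM in Kdm5c+/- adipocytes, against 35.5, 33.9 and 36.5 CPM in wild-type adipocytes. Every Kdm5c+/- library lay above every wild-type library, with a log2 difference of 0.45 ± 0.08 (95% interval 0.27 to 0.63), and the adjusted p was 0.273 in limma, 0.274 in edgeR and 0.00439 in DESeq2. Rpl23, a large subunit protein at the face that meets the small subunit, had 20.0, 21.6 and 21.7 CPM in Kdm5c+/- adipocytes, against 16.7, 13.3 and 14.6 CPM in wild-type adipocytes, with no overlap. Its log2 difference was 0.48 ± 0.10 (95% interval 0.24 to 0.73), with an adjusted p of 0.273 in limma, 0.274 in edgeR and 0.0266 in DESeq2.

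Rpsa, a small subunit protein also known as the laminin receptor precursor, was among the genes that followed. Rpsa had 113, 132 and 131 CPM in Kdm5c+/- adipocytes, against 100.2, 100.1 and 111 CPM in wild-type adipocytes (0.27 ± 0.09, adjusted p = 0.300, limma). The labels did not overlap for it, and it did not pass. Also with an unadjusted p under 0.05 were Rpl7a, Rps2, Rpl15, Rpl36al, Rpl35a, Rps24 and Rps12, with log2 differences of 0.18 to 0.36.

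In the other direction the differences were smaller and less certain. Rps7 had 5.28, 5.84 and 4.78 CPM in Kdm5c+/- adipocytes, against 7.40, 5.71 and 6.60 CPM in wild-type adipocytes, with overlap (-0.26 ± 0.14, adjusted p = 0.400, limma). Rpl10 had 5.98, 5.92 and 6.54 CPM in Kdm5c+/- adipocytes, against 6.99, 9.04 and 6.64 CPM in wild-type adipocytes (-0.25 ± 0.14, adjusted p = 0.423, limma). Rps10, a small subunit protein that is ubiquitinated when ribosomes collide, had 6.38, 4.40 and 6.42 CPM in Kdm5c+/- adipocytes, against 6.70, 7.34 and 6.60 CPM in wild-type adipocytes (-0.24 ± 0.16). Rps16 had 1.32, 1.88 and 2.04 CPM in Kdm5c+/- adipocytes, against 2.19, 2.04 and 2.36 CPM in wild-type adipocytes (-0.23 ± 0.16). For Rpl10, Rps10 and Rps16 the labels did not overlap, and none of the 4 genes had an unadjusted p under 0.05. The closest values of Rps16, 2.0371 CPM in Kdm5c+/- and 2.0385 CPM in wild type, were less than a read apart. A read is worth 0.0392 and 0.0340 CPM in these libraries.

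In the same adipocyte libraries the summed adipocyte, progenitor and endothelial markers did not overlap between the labels, while the other marker sums did. None of the markers tested was called by limma. By log2 difference, 7 of the 10 adipocyte genes were above 0, and 0 of the 8 progenitor and 7 endothelial genes. The largest means in the adipocyte sum were those of Cfd (15401.5 CPM in Kdm5c+/-, 10523 in wild type) and Fabp4 (12738.5 and 9797 CPM). Lep went the other way (1376 and 2220 CPM). The 10 adipocyte genes summed to 41584 to 50139 CPM in Kdm5c+/- and 36958 to 37120 CPM in wild type, 8 progenitor genes to 72.9 to 81.6 CPM in Kdm5c+/- and 89.1 to 171 CPM in wild type, 7 endothelial genes to 114 to 202 CPM in Kdm5c+/- and 254 to 315 CPM in wild type, and 5 pericyte and smooth muscle genes to 45.2 to 184 CPM in Kdm5c+/- and 168 to 402 CPM in wild type. The 6 macrophage genes in the table summed to 31.4 to 34.4 CPM in Kdm5c+/- and 32.9 to 93.9 CPM in wild type. The 6 lymphocyte genes (1.00 to 2.16 CPM in Kdm5c+/-, 0.618 to 2.65 CPM in wild type) and 4 mammary epithelial genes (1.10 to 1.44 CPM in Kdm5c+/-, 0.849 to 1.43 CPM in wild type) were near the floor, and 0 markers of any list were at 0 in all libraries of a group. Rn45s also lay higher in all 3 Kdm5c+/- adipocyte libraries (4813 to 7692 CPM, where wild type had 3794 to 4386 CPM), highest in the second. The part of these markers and of Rn45s in the adipocyte differences was not tested. Without the second Kdm5c+/- library, 59 of 76 ribosomal protein genes were above 0, against 46.1% of all genes, with medians of 0.13 for the large and 0.095 for the small subunit, beside -0.02 for all genes. The mitochondrial ribosomal protein genes were above 0 for 64 of 76 (median 0.10), with 0 called by limma.

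In the stromal vascular fraction the genotype labels were close to each other for this set. Of 78 genes tested with limma, 0 were called (0.00725% of all 13792 genes, 1 gene, which is no ribosomal protein gene), 0 by edgeR and 0 by DESeq2, and 1 had an unadjusted p under 0.05 (1.28%, against 7.56% of all genes). That gene was lower in Kdm5c+/-, as were 5.50% of all genes, while 2.07% of all genes were higher at that level. The log2 difference was above 0 for 42 of 78 (53.8%, against 40.6% of all genes). The medians were 0.012 for the large subunit and 0.0022 for the small subunit, against -0.03 for all genes. The Kdm5c+/- libraries lay above the wild-type libraries for 2 genes (2.56%, against 3.74% of all genes) and below them for 6 (7.69%, against 9.74% of all genes).

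The Kdm5c+/- stromal vascular libraries differed among themselves. The first was the highest of its group for 51 of 78 ribosomal protein genes, against 38.0% of all genes, and the third was the lowest for 59 of 78, against 39.0% of all genes. The same 3 libraries had 18620.5, 19532 and 8985 CPM of Rn45s, against 6733, 6554 and 6676 CPM in wild type. Of the adipocyte markers, Adipoq had 165, 169 and 55.8 CPM (wild type 105, 45.4 and 59.5). Lep had 46.1, 27.2 and 32.5 CPM (wild type 41.6, 29.8 and 43.9). By log2 difference, 8 of 10 adipocyte, 6 of 6 macrophage and 4 of 8 progenitor genes were above 0. So were 2 of 6 lymphocyte and 3 of 4 mammary epithelial genes. None of 7 endothelial and 5 pericyte and smooth muscle genes was, against 40.6% of all genes. The part of Rn45s and of these markers was not tested. Without the first and second libraries, 13 genes were above 0 (77 tested, 0 called), against 35% of all genes, with medians of -0.11 for the large and -0.15 for the small subunit, beside -0.06 for all genes. The 1 library left in that arm is taken to vary like the wild-type group.

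Rpl10 was the gene with the smallest p. It had 30.02, 33.2 and 28.2 CPM in Kdm5c+/- stromal vascular libraries, against 39.0, 38.0 and 35.5 CPM in wild type, with no overlap, and a log2 difference of -0.29 ± 0.09 (adjusted p = 0.617, limma). Rpl10 is 1 of 3 X-linked genes of the set, with Rpl36a and Rpl39, and 91.6% of its 100-base windows lay in other genes too. Rpl27 had 3.54, 3.07 and 3.08 CPM in Kdm5c+/- stromal vascular libraries, against 4.25, 4.94 and 3.82 CPM in wild type (-0.33 ± 0.14). Rpl29 had 96.0, 90.1 and 92.8 CPM in Kdm5c+/- stromal vascular libraries, against 104, 109 and 98.2 CPM in wild type (-0.16 ± 0.07). Rpl27 and Rpl29 did not overlap between the labels, with adjusted p-values of 0.644 and 0.654 in limma.

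Higher values in the same fraction were no clearer. Rpl39l had 2.81, 3.66 and 1.32 CPM in Kdm5c+/- stromal vascular libraries, against 0.760, 1.48 and 1.53 CPM in wild type (0.63 ± 0.29). Rpl22l1, a paralog that can take the place of Rpl22, had 10.3, 8.84 and 8.01 CPM in Kdm5c+/- stromal vascular libraries, against 6.98, 7.36 and 7.67 CPM in wild type (0.27 ± 0.12). Rpl39l overlapped between the labels by its lowest Kdm5c+/- library, and Rpl22l1 did not overlap. Rpl15 had 24.2, 27.1 and 20.9 CPM in Kdm5c+/- stromal vascular libraries, against 17.5, 18.1 and 24.2 CPM in wild type (0.27 ± 0.15). Rpl37 had 6.39, 5.27 and 3.90 CPM in Kdm5c+/- stromal vascular libraries, against 3.80, 4.27 and 3.74 CPM in wild type (0.31 ± 0.17), and -0.0080 without the first and second Kdm5c+/- libraries. The adjusted p of these 4 genes ran from 0.652 to 0.682 in limma.

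**Figure D5:**
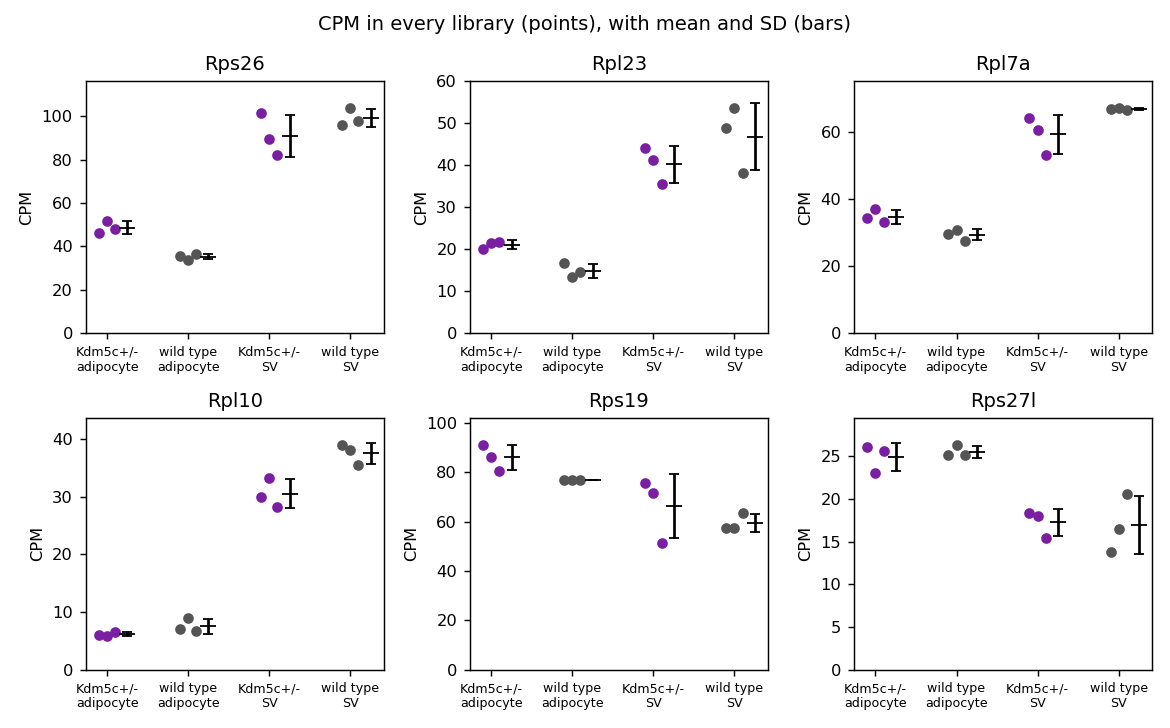
CPM (y axis, from 0) of 6 genes in each of the 12 libraries (points; purple Kdm5c+/-, gray wild type) with the mean and SD of the 3 libraries of each group (black). Rps26, Rpl23 and Rpl7a lie higher in Kdm5c+/- than in wild-type adipocytes and lower in mean in the stromal vascular (SV) fraction, Rpl10 lies lower in Kdm5c+/- in both fractions, and Rps19 and Rps27l lie higher in adipocytes than in SV libraries.

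The difference between the 2 genotype differences, adipocyte minus stromal vascular, was tested itself in all 12 libraries. Of 78 genes, 0 were called by limma (0% of all 14193 genes) and 0 by edgeR, and DESeq2 called 1, Rps26, among 67 of all genes. At an unadjusted p under 0.05 there were 9 (11.5%, against 8.93% of all genes), all above 0, where 4.24% of all genes were above and 4.69% below 0. Whatever the p, 52 of 78 lay above 0 (66.7%, against 47.3% of all genes). For Rps26, with 101, 89.8 and 82.0 CPM in Kdm5c+/- stromal vascular libraries, against 96.1, 104 and 98.0 CPM in wild type, the genotype difference was 0.45 ± 0.08 in adipocytes and -0.13 ± 0.09 in the stromal vascular fraction. Its difference of differences was 0.58 ± 0.12 (95% interval 0.32 to 0.84), with an adjusted p of 0.445 in limma, 0.394 in edgeR and 0.00638 in DESeq2. Rpl23, with 44.0, 41.2 and 35.5 CPM in Kdm5c+/- stromal vascular libraries, against 48.8, 53.7 and 38.0 CPM in wild type, had 0.69 ± 0.18 (adjusted p = 0.453, limma). For Rpl10, whose genotype difference was negative in both fractions, it was 0.04 ± 0.16 (adjusted p = 0.958, limma).

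The genotype difference of Rps12, a small subunit protein, was singled out after its values were seen, because its labels did not overlap in either fraction and lay in opposite order. Its closest stromal vascular values, 7.891 CPM in Kdm5c+/- and 7.922 CPM in wild type, were less than a read apart. A read is worth 0.0411 and 0.0363 CPM in these libraries. Rps12 had 6.02, 6.84 and 5.01 CPM in Kdm5c+/- adipocytes, against 4.01, 4.59 and 4.64 CPM in wild-type adipocytes, and 6.61, 7.28 and 7.89 CPM in Kdm5c+/- stromal vascular libraries, against 9.53, 8.35 and 7.92 CPM in wild type. Rpl7a, a large subunit protein named for the same reason, had 34.1, 36.9 and 32.9 CPM in Kdm5c+/- adipocytes, against 29.6, 30.7 and 27.5 CPM in wild-type adipocytes, and 64.1, 60.5 and 52.9 CPM in Kdm5c+/- stromal vascular libraries, against 66.6, 67.0 and 66.4 CPM in wild type. The difference of differences was 0.57 ± 0.18 for Rps12 and 0.41 ± 0.12 for Rpl7a, both with an adjusted p of 0.499 to 0.509 in limma, so neither passed.

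The medians of both subunits lay below the genes' means in every adipocyte library and above them in every stromal vascular library. The offset between the subunits differed by fraction. Per library, the median deviation of the large subunit genes from their means, minus that of the small subunit genes, was 0.080, 0.074 and 0.12 in Kdm5c+/- adipocytes, 0.0019, 0.024 and 0.051 in wild-type adipocytes, -0.11, -0.030 and -0.054 in Kdm5c+/- stromal vascular cells, and -0.078, -0.052 and -0.094 in wild-type stromal vascular cells, on the log2 scale. The 6 adipocyte libraries lay above the 6 stromal vascular libraries. In adipocytes the 3 Kdm5c+/- libraries lay above the 3 wild-type libraries, and in the stromal vascular fraction the labels overlapped.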

How the data were processed

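RNA sequencing libraries were measured for 12 samples, and the genotype and fraction of each come from its labels. The CPM values were deposited by the authors, and each library sums to 1000000 CPM over the genes listed. The genome build was GRCm38 and the tools included STAR 2.7.2a and edgeR 3.26.8, per the submitters' processing notes. How reads were counted, and on which annotation, is not given in the sources used here. In each library 100% of the deposited CPM values were whole multiples of 1 read, within a tolerance of 0.05 read, which gave the read totals. Single values carry the counting error of those reads.

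From the CPM, log2(CPM + 1) was fitted with limma 3.58.1 (R 4.3.3, eBayes with trend and robust), two-sided. A gene entered a fit if 3 or more of its libraries reached 1 CPM. P-values were adjusted by Benjamini-Hochberg over all genes tested, with a threshold of 0.05. Log2 differences carry SE on this scale, which understates changes of low genes. The labels do not say that different pools held different mice, so p-values measure the spread between these pools. The genotype labels were compared with the 6 libraries of a fraction, and the fractions and the difference of differences with all 12. The ribosomal protein genes and all lists were chosen with earlier results of these data known. Genes named with values in every library were Rps26, the 4 genes per direction with the smallest p (genotype) or the largest called difference (fraction), the 3 with the smallest p for the difference of differences, the paralogs with their parent genes, and the 3 per subunit with the highest level per length. A few genes that this rule takes are not reported here. All alternatives were run on the recovered reads (edgeR 4.0.16, DESeq2 1.42.0) or on the CPM (quantile or median-of-ratios scaling, a pool or replicate block, each pool left out, pseudocount 0.25, no filter, or a filter at a mean of 5 CPM). The fits were tested on simulated data.

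Fractions with the same genotype and number were treated as possible pairs. Their deviations from the group means correlated at 0.169 to 0.278 across genes in all 6 pairs of an adipocyte and a stromal vascular library. Adipocyte and stromal vascular libraries of different numbers were not compared in this way. The first Kdm5c+/- and first wild-type adipocyte libraries reached 0.341. Fractions of the same genotype and number were taken as pairs, from the data, only in the pool block and when each pool was left out. The main fits of the fractions and of the difference of differences used group means with no pool term. Positions, transcript lengths and shared windows came from GENCODE mouse release 21, which matched all 81 genes, and promoters from RefSeq. Tables were read with Python 3.11.15, pandas 2.3.3 and numpy 2.4.6, and figures drawn with matplotlib 3.10.9.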

Additional observations from a re-analysis of the deposited data

How the results depend on the processing

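Between the fractions, 66 to 68 genes were called with each pool left out in turn, 2 to 4 higher and 64 to 65 lower, with medians of -0.94 to -0.88 for the large and -1.06 to -0.95 for the small subunit. The count of higher genes, 3 on CPM, was 10 after median-of-ratios scaling, 28 after quantile normalization, 11 in edgeR and 10 in DESeq2. The large subunit median moved to -0.98 with a mean of at least 5 CPM, -0.52 after median-of-ratios scaling, -0.25 after quantile normalization, -0.50 in edgeR and -0.58 in DESeq2. The small subunit median moved to -1.13 with a pseudocount of 0.25, -1.09 with a mean of at least 5 CPM, -0.62 after median-of-ratios scaling, -0.60 after quantile normalization, -0.66 in edgeR and -0.74 in DESeq2. These scalings differ in the median of all genes, as given above. Rpl22l1 turned to 0.29, Rpl39 to 0.26 and Rps27 to 0.63 with quantile normalization. Rpl36al turned to 0.20 after median-of-ratios scaling and in DESeq2, 0.23 after quantile normalization and 0.28 in edgeR. Rpl36a, without a call, ran from -0.0077 to 0.14 with each pool left out in turn. The cause of the single genes' changes was not tested.

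Between the genotype labels in adipocytes, DESeq2 called 2 genes, both higher in Kdm5c+/-, and the large subunit median was 0.19 in both edgeR and DESeq2. The limma count stayed at 0 with each library left out in turn (medians 0.11 to 0.13 large, 0.10 to 0.12 small). In the stromal vascular fraction, leaving out each library gave medians of -0.03 to 0.05 (large) and -0.07 to 0.09 (small; -0.067 without Kdm5c+/- library 1 and 0.088 without library 3). Without the first and second Kdm5c+/- libraries, an alternative chosen after seeing the data, they were -0.11 and -0.15, and Rpl37 turned to -0.0080. For the difference of differences DESeq2 called 1 gene, higher. With the pools as a replicate block, 67 genes were called between fractions (3 higher, 64 lower), and only the calls of Rpl36 and Rpl36al were lost. Replicate numbers did not link the genotype labels (correlations from -0.28 to 0.34 in 6 pairs), and a replicate block there left 0 calls. For the single genes taken by the naming rule, over all alternatives, 603 values kept their direction and side of the threshold, 13 lost a call, 12 gained one and 9 changed sign. The counts of called genes and the subunit medians are not in this tally. Reads shared with pseudogenes and the unknown rule for counting them limit the levels, and 3 libraries per group limit the genotype comparisons.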
